A study of Homo sapiens with 6 samples.

Results

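The major histocompatibility complex (MHC) of chromosome 6 was examined for accessible chromatin in the lung carcinoma cell line H1155 (human). ATAC-seq was used, an assay whose transposase cuts and tags DNA where chromatin is open. The study compared 3 control libraries with 3 libraries of cells that express a chimera, titled TA. The labels give the genotypes as control and chimera, describe the 6 libraries as biological triplicates prepared with the Omni-ATAC protocol, and leave TA and the chimera unexplained. Whether the replicates came from separate cultures is not given, so each p-value measures the spread between these libraries, which may in part be technical. Members were all regions that lay wholly within chromosome 6 from 28477797 to 33448354, the extended MHC on hg19. Regions were made by merging peaks of the 6 deposited lists that shared at least 1 bp. Of 149765 regions in all, 468 were members, and 7702 lay on the rest of chromosome 6. The outermost members began at 28510187 and ended at 33422672, which is 32.4 kb and 25.7 kb inside the bounds. The nearest regions outside lay 34.1 kb below the lower and 9.71 kb above the upper bound, and no region crossed a bound.

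The MHC is a gene-dense part of the genome that is best known for the HLA genes. Class I molecules present peptides from inside the cell to cytotoxic T cells, and most nucleated cells make them. Class II molecules (HLA-DR, HLA-DQ and HLA-DP) present peptides to helper T cells and are mainly made by professional antigen-presenting cells. Class III, between these, holds genes of other functions, and the flanks of the complex are called extended class I and extended class II.

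The members were divided by their midpoints into extended class I, class I, class III, class II and extended class II, in the order in which these follow each other from lower to higher coordinates. These parts held 93, 199, 90, 47 and 39 members. Landmark genes separated the parts: MOG, MICB, NOTCH4 and COL11A2. Rounded hg19 positions of these genes from general knowledge served as the boundaries, since an annotation of that build was not used here. The gene content of each part was read from the order of genes in the RefSeq table of GRCh38.p14. The peak positions are not on that build, so no region was linked to a gene. By gene order, extended class I (from GPX5) held 22 protein-coding genes, TRIM27 of the tripartite motif family among them, and 40 tRNA genes. Class I held 50 protein-coding genes, among them POU5F1, a pluripotency transcription factor. Class III held 59. Among them were the complement genes C2, CFB, C4A and C4B, the cytokine genes TNF, LTA and LTB, the heat shock genes HSPA1A, HSPA1B and HSPA1L, and EHMT2, a histone H3 lysine methyltransferase. Class II held 20 protein-coding genes. All 13 class II genes looked up were there, with TAP1 and TAP2, which encode the peptide transporter, PSMB8 and PSMB9, which encode immunoproteasome subunits, and BRD2, a bromodomain protein. Extended class II (to ZBTB9) held 20, with TAPBP, which encodes tapasin of the class I loading complex, and DAXX, RING1 and RXRB, which encode chromatin and transcription factors.

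Libraries called 78011 to 103500 regions over the whole genome, and control 2 called the fewest and control 3 the most. The number of peaks in a list is the only depth used here besides the read pileup at each summit, which follows from a peak's deposited fold and −log10 p. For the strongest peak of each member that pileup had a median of 54, a lowest value of 11 and a highest of 326. Absence of a peak means that the signal of a library did not reach its threshold, not that there was none.

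The MHC was dense in open regions, and a larger share of its regions than of all regions was called in every library. Each library called 308 to 371 members, or 62.0 to 74.6 per Mb, against 23.9 to 31.8 per Mb on the rest of chromosome 6. The ratio of the densities was 2.37 ± 0.117 (SD, n = 6) and ran from 2.25 to 2.59. All 6 libraries were denser in the MHC than on the rest of the chromosome (exact sign-flip permutation test over libraries, two-sided, p = 0.0312, the smallest that 6 libraries allow). Set against coding genes the order was the opposite. The libraries held 1.80 to 2.17 members per protein-coding gene of the MHC (171 genes), against 4.51 to 6.01 regions per protein-coding gene on the rest of chromosome 6 (878 genes). All 6 libraries had a peak in 235 members (50.2%), whereas 37.8% of all regions were called in all 6. Only 1 library had a peak in 95 members (20.3%), against 29.7% of all regions.

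Regions of the MHC called in all 6 libraries were also somewhat taller and wider by median than those of the genome, though not in every part. The deposited fold of a peak is the authors' ratio of the summit to that library's own local background. It is relative to that background, so the main tests of fold between the groups were made after centring. In centring, the median of each library was subtracted on the log2 scale. Folds of single members are printed as deposited. Statements on their range, order or overlap are therefore made before centring, and fitted differences after it. Over the 235 members called in all 6 libraries the median fold was 8.33, 6.95 and 8.55 in control libraries 1, 2 and 3 and 7.22, 7.74 and 7.41 in chimera libraries 1, 2 and 3. Over all 56679 regions called in all 6 it was 7.80, 6.31 and 8.22, and 6.65, 7.24 and 6.71. The MHC median lay above the genome median in each of the 6 libraries, by 0.06 to 0.14 on the log2 scale. A median fold over the libraries above 10 was reached by 59 of the 235 members (25.1%), against 19.3% of all regions called in all 6. The median width of the merged regions was 780 bp for the 235 members and 739 bp for all such regions. By part it was 713 bp in extended class I, 687 bp in class II and 798.5 to 900 bp in the others. Median fold over libraries was 6.35 in extended class I, 6.97 in extended class II and 7.37 to 8.25 in the others, against 7.08 for all such regions. After centring, the median of extended class I averaged −0.10 over the 6 libraries.

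**Figure D1:**
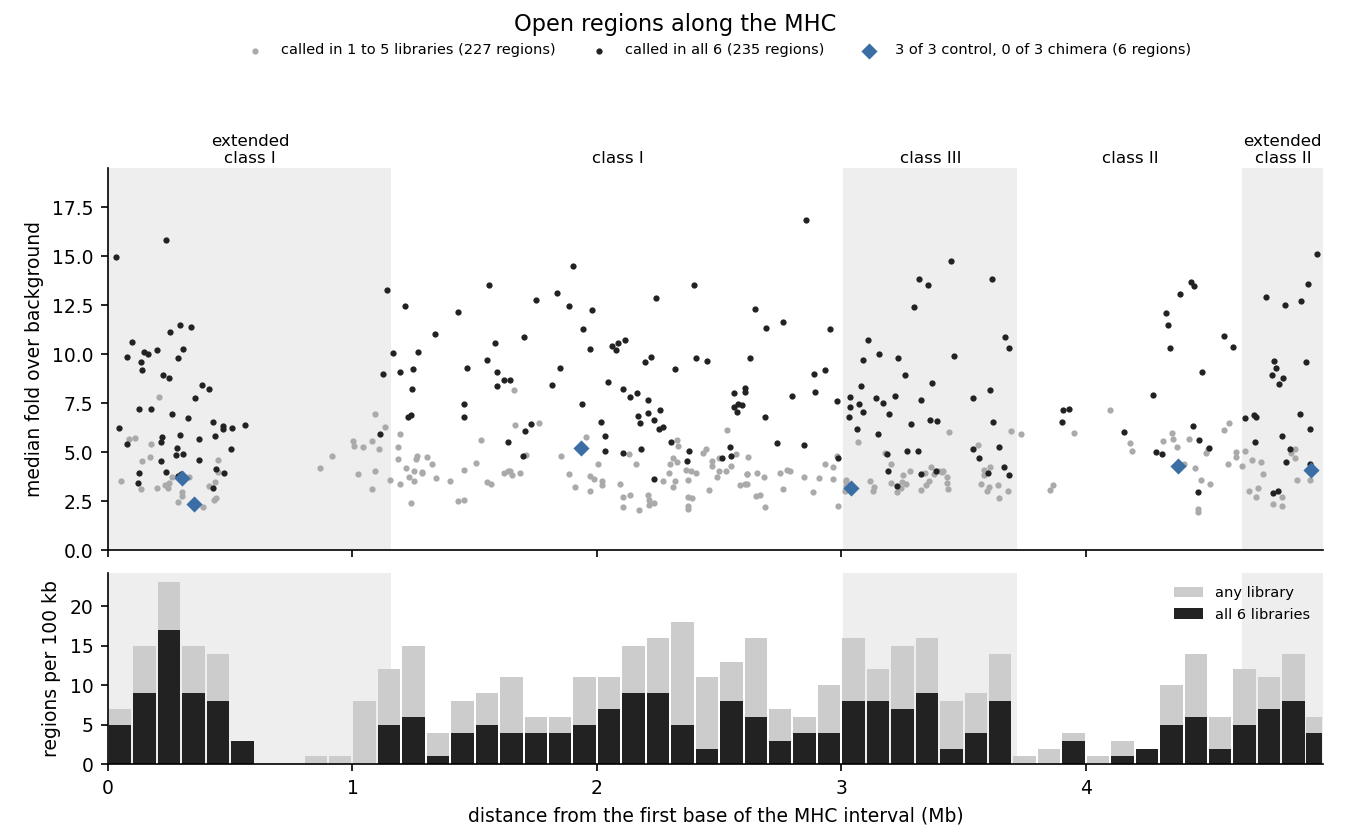
Upper panel: median deposited fold over background (over the libraries with a peak) of each of the 468 members, against distance in Mb from the first base of the MHC interval, with the 5 parts shaded in turn. Lower panel: members per 100 kb called in any library and in all 6. The 2 emptiest stretches lie in extended class I and in the first part of class II, and the 6 members called in all control and no chimera libraries have folds in the lower part of the range.

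Extended class I was open in a cluster, then nearly bare, and open again toward class I. Its first 100 kb held 7 members, and the 400 kb from 28577797 to 28977796 held 67, of which 43 were called in all 6 libraries. Within that stretch lay the fullest 100 kb of the whole MHC, from 28677797 to 28777796, with 23 members and 17 called in all 6. From 29077797 to 29477796, a stretch of the same length, there were 2 members, each called in 1 library. The longest interval of the MHC without a peak in any library, 304 kb from 29040268 to 29343833, lay there. The 100 kb from 29477797 held 8 members, of which 0 were called in all 6. The 100 kb from 29577797, which runs into class I, held 12, of which 5 were called in all 6. The tallest member of the part, from 28715424 to 28716119 (696 bp), had folds of 16.3, 14.4 and 18.1 in the control libraries and of 13.1, 15.4 and 16.4 in the chimera libraries. The groups overlapped, and its fitted difference (limma, chimera minus control, log2) was −0.01 ± 0.09 (SE). The first member of the MHC, from 28510187 to 28511042, had folds of 17.6, 14.3 and 18.0 in control and of 11.3, 15.4 and 14.5 in chimera libraries. Another, from 29617457 to 29618342, had folds of 12.9 to 13.8 in control and of 10.1 to 13.6 in chimera libraries.

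Class I was open along its whole length. None of its 18 bins of 100 kb lacked a member called in all 6 libraries, and a bin held at most 9 such members. The bin with the most members of any kind, from 30777797 to 30877796, held 18, of which 5 were called in all 6. The tallest member of the MHC lay here, from 31334491 to 31335253 (763 bp), with folds of 17.6, 15.5 and 18.8 in the control libraries and of 13.1, 17.2 and 16.5 in the chimera libraries. Its difference was −0.05 ± 0.09 (SE). Control 3 was highest and chimera 1 lowest, and the other values overlapped. Next by fold were the members from 30379233 to 30380045, with folds of 12.3 to 17.6 in control and of 11.5 to 17.9 in chimera libraries, and from 30034327 to 30035457, with folds of 11.7 to 14.9 and of 13.2 to 13.8. The widest member of the MHC, 2066 bp from 30523541 to 30525606, held up to 3 peaks in a library and had folds of 6.19 to 9.53 in control and of 8.20 to 10.2 in chimera libraries.

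Class III, the shortest of the 3 classical parts, was the densest of them. Members called in all 6 libraries covered 5.84% of its length, against 4.20% in class I and 1.80% in class II. All 7 of its bins of 100 kb held a member called in all 6, with a median of 8. Its tallest member, from 31926223 to 31927274, had folds of 17.1, 10.8 and 17.3 in the control libraries and of 13.7, 14.7 and 14.8 in the chimera libraries. As deposited, control 2 was lowest, and the chimera values lay inside the control range. After centring, the fitted difference was 0.08 ± 0.10 (SE, limma). A member from 31794497 to 31795796 had deposited folds from 13.6 to 14.3 in control and from 12.9 to 14.9 in chimera libraries, with summit pileups of 218 to 321. Its fitted difference was 0.12 ± 0.11 (SE, limma). The member from 32095838 to 32096369 had folds of 13.8 to 15.5 in control and of 12.2 to 13.8 in chimera libraries.

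Class II was the sparsest part and was open mainly at its centromeric end. The 600 kb from 32177797 to 32777796 held 13 members and 6 called in all 6 libraries. The next 300 kb, to 33077796, held 30 members and 13 called in all 6. The second longest interval without a peak in any library, 150 kb from 32427927 to 32577632, and the next, 120 kb from 32213097 to 32332772, were both in class II. The tallest 3 members all lay in the fuller 300 kb. The member from 32908447 to 32909403 had folds of 18.5, 10.9 and 16.02 in the control libraries and of 14.1, 13.2 and 13.3 in the chimera libraries. As deposited, its chimera values were inside the control range. The member from 32920647 to 32921328 had folds of 10.1 to 15.8 in control and of 10.5 to 15.3 in chimera libraries, and that from 32861810 to 32863312 (1503 bp) folds of 11.5 to 14.4 and of 12.3 to 13.8. A member from 32820914 to 32822770, 1857 bp wide, had folds of 7.94 to 10.4 in control and of 10.2 to 11.9 in chimera libraries. Its difference was 0.31 ± 0.12 (SE), which did not pass (limma, adjusted p = 0.348). Among the 5 widest members of the MHC the differences went both ways. That of the widest, from 30523541 in class I, was 0.28 ± 0.15 (SE, limma). Those from 28805162 and 28863221 in extended class I were −0.12 ± 0.17 and −0.02 ± 0.15. The member from 30988368 in class I had −0.08 ± 0.17.

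Extended class II was short and about as dense as class III, with 23 of its 39 members called in all 6 libraries. Its tallest member, the last of the MHC, ran from 33421848 to 33422672 with folds of 15.9, 13.1 and 17.2 in control and of 15.0, 15.2 and 15.0 in chimera libraries. As deposited, the chimera values were close together and lay inside the control range. After centring, the fitted difference of this member was 0.09 ± 0.09 (SE, limma). The member from 33385544 to 33386574 had folds of 11.5 to 14.6 in control and of 12.2 to 14.7 in chimera libraries, and the 1828 bp wide member from 33216079 to 33217906 folds of 12.5 to 14.1 and of 11.7 to 13.3.

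The classical parts differed in density within each library. The number of members called per Mb was 91.5, 88.7 and 103 in class III in control libraries 1, 2 and 3, and 84.5, 85.9 and 87.3 in chimera libraries 1, 2 and 3. In class I it was 74.6, 62.7 and 81.1, and 69.2, 70.8 and 71.9. In class II it was 36.96, 32.6 and 41.3, and 31.52, 30.4 and 38.04. Every library kept the order class III, class I, class II. Class III exceeded class I by 18.4 members per Mb, class III exceeded class II by 55.0 and class I exceeded class II by 36.6 on average over the 6 libraries (exact sign-flip permutation tests, two-sided, adjusted p = 0.0312 each over 3 tests). The first of these rests on where the parts are divided: with the inner boundaries moved by 100 kb to higher coordinates it was 2.58 (adjusted p = 0.0938), while that of class III over class II fell to 30.6 and still passed (exact permutation, adjusted p = 0.0469). Per protein-coding gene the order was different, with 1.02 to 1.24 members in class III, 1.40 to 1.90 in class II and 2.32 to 3.00 in class I over the libraries.

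The fold of the called peaks was higher in class I than in class III. The median fold over the members a library called was 7.31, 6.24 and 7.38 in class I in control libraries 1, 2 and 3 and 6.39, 7.22 and 6.73 in the chimera libraries. In class III it was 6.15, 5.44 and 5.94 in control and 5.81, 6.78 and 5.42 in chimera libraries. Class III was lower in 6 of 6 libraries, by 0.22 on the log2 scale on average (exact sign-flip permutation test, adjusted p = 0.0469 over 3 tests). Class I also exceeded class II in 6 of 6 libraries, by 0.11 (exact permutation, adjusted p = 0.0469), and the difference between class III and class II, −0.10, did not pass (exact permutation, adjusted p = 0.0938). Neither call of a difference held when a library's peaks were required to span 50% of the region (exact permutation, adjusted p = 0.0938 for class III against class I and 0.281 for class I against class II). Where weaker peaks (−log10 q under 10) were left out, class I lay 0.05 below class II. With peaks up to 1 kb apart merged it lay 0.19 above (exact permutation, adjusted p = 0.0469), and without chimera 3 0.08 above. Over only the members called in all 6 libraries, the centred median fold averaged 0.211 in class I, 0.212 in class II and 0.041 in class III. Class I thus showed no excess over class II in that set, where the parts were not tested.

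**Figure D2:**
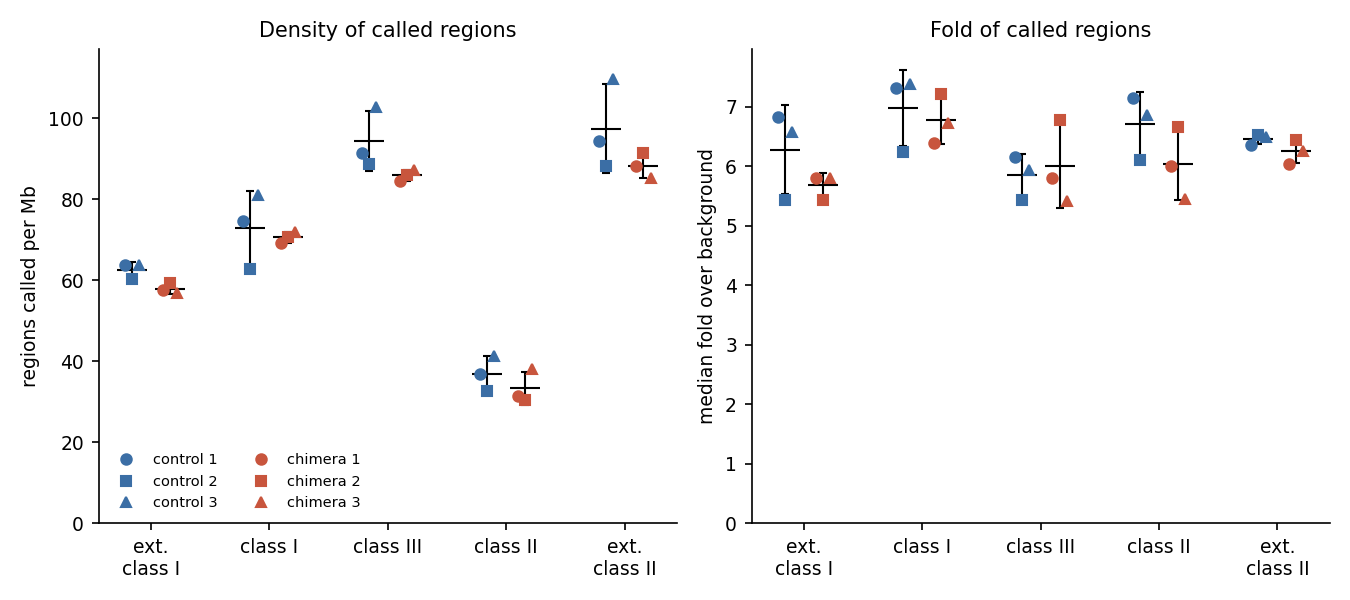
Members called per Mb (left) and median deposited fold over background of the called members (right) in the 5 parts of the MHC, 1 point per library, with black bars for the mean and SD of 3 libraries. Class II lies at 30.4 to 41.3 members per Mb in the 6 libraries, below every value of the other parts, and the medians of fold span 5.42 to 7.38.

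Control and chimera libraries were then compared over the MHC as a whole. The control libraries called 342, 308 and 371 members and the chimera libraries 313, 319 and 324. The groups overlapped, with control 2 lowest and control 3 highest. The difference, chimera minus control, was −21.7 members (340.3 ± 31.53 against 319 ± 5.51, SD, n = 3 each, exact permutation test, two-sided, p = 0.4; 3 against 3 cannot give less than 0.1). It was −7 without control 3, −39.7 without control 2 and −11.7 with peaks up to 1 kb apart merged. As a share of all regions that a library called, members made up 0.363%, 0.395% and 0.358% in control and 0.358%, 0.347% and 0.349% in chimera libraries. Every chimera library lay below every control library, though the highest chimera value and the lowest control value differed only in the fourth digit (0.3583% and 0.3585%). The difference was −0.0206 percentage points (exact permutation p = 0.1, the smallest possible). The control library with the shortest list, control 2, had the highest share, and the difference without it was −0.0105 percentage points (exact permutation p = 0.2). It also shrank, and the groups overlapped, when weaker peaks were left out: it was −0.00575 percentage points at a −log10 q of at least 5 (exact permutation p = 0.9) and −0.0119 at a −log10 q of at least 10 (exact permutation p = 0.8). With peaks up to 1 kb apart merged, with 50% cover required or with the outer bounds moved by 50 kb, it ran from −0.0210 to −0.0152 (exact permutation p = 0.2 each), so there too the groups were not fully apart. The part that list length plays in it was not tested. Among 541 windows of the same length over the rest of the genome, each with at least 100 regions, 8.32% had every chimera library below every control library and 11.3% the opposite. The share of regions on the rest of chromosome 6 was 5.09% in both groups (difference −0.00517 percentage points, exact permutation p = 1).

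**Figure D3:**
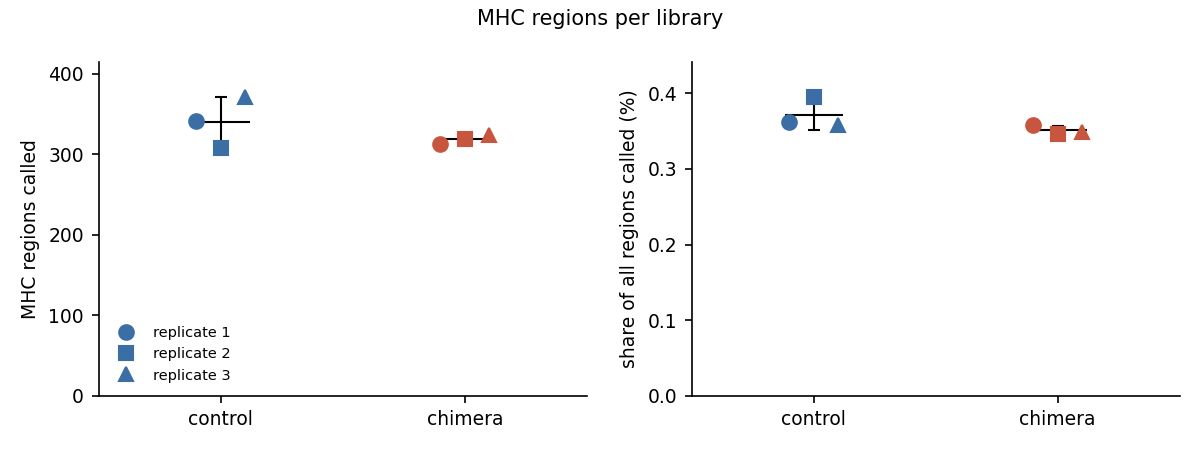
MHC members called (left) and their share of all regions a library called, in % (right), 1 point per library, with the mean and SD of 3 libraries. Counts overlap between the groups, and the control shares of 0.358% to 0.395% lie above the chimera shares of 0.347% to 0.358% with almost no gap.

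By part, chimera libraries called fewer members in each of the 5, and no difference passed adjustment over the 10 tests of counts and folds (exact permutation tests, lowest adjusted p = 0.5). In extended class I the control libraries called 74, 70 and 74 members and the chimera libraries 67, 69 and 66, so the groups did not overlap (difference −5.33, exact permutation p = 0.1). In class III they called 65, 63 and 73, and 60, 61 and 62, again without overlap (difference −6, exact permutation p = 0.1). Neither gap between the groups held when weaker peaks were left out or nearby peaks joined. At a −log10 q of at least 5, at a −log10 q of at least 10 and after merging peaks up to 1 kb apart, chimera minus control in class III was −3.67, −2 and −2.67 (exact permutation p = 0.7, 1 and 0.5), and that in extended class I −6, −9 and −2 (exact permutation p = 0.2, 0.3 and 0.2). In class III it was also −3.33 with the inner boundaries moved by 100 kb (exact permutation p = 0.5). Without control 3 it shrank to −3.67, but the groups still did not overlap (exact permutation p = 0.1). In class I they called 138, 116 and 150, and 128, 131 and 133, with both extremes in control libraries (difference −4, exact permutation p = 0.7). That difference was +3.5 without control 3 and −13.8 without control 2. In class II they called 34, 30 and 38, and 29, 28 and 35 (difference −3.33, exact permutation p = 0.4). In extended class II they called 31, 29 and 36, and 29, 30 and 28 (difference −3, exact permutation p = 0.3). The difference in class III was not shown to differ from that in class I (−2 members, exact permutation p = 1).

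The height of the shared peaks did not separate the groups either. After centring on each library's genome median, the MHC median was 0.10, 0.14 and 0.06 on the log2 scale in control libraries 1, 2 and 3 and 0.12, 0.10 and 0.14 in the chimera libraries, with a difference of 0.02 (exact permutation p = 0.4). By part the differences in centred fold ran from −0.06 in extended class I to 0.04 in class I.

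No member passed an adjusted p under 0.05 for a difference in fold between the groups. The fit was made with limma over all 56679 regions called in all 6 libraries, of which 6 passed (0.0106%), 4 of them higher in chimera libraries (0.00706%) and 2 lower (0.00353%). None of the 235 members was among them. In simulated data the fit called 2 of 100 planted changes of 0.5 on the log2 scale and 54 of 100 planted changes of 1.0. A member that did not pass may therefore still differ. At an unadjusted p under 0.05 there were 18 members (7.66%), 9 higher and 9 lower in chimera libraries, against 11.3% of all regions tested, of which 5.7% were higher and 5.58% lower. The median difference was 0.03 over the members and 0.03 over all regions, on the log2 scale. After centring, every chimera library lay above every control library for 23 members (9.79%, against 9.5% of all regions), and below for 13 (5.53%, against 6.99%). The shares of the members lay near those of the genome. The spread between replicates within a group was a median SD of 0.15 over the members and 0.18 over all regions. A difference of more than 0.5 in either direction was reached by 4 of the 235 members, and by 1913 of the 56679 regions.

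**Figure D4:**
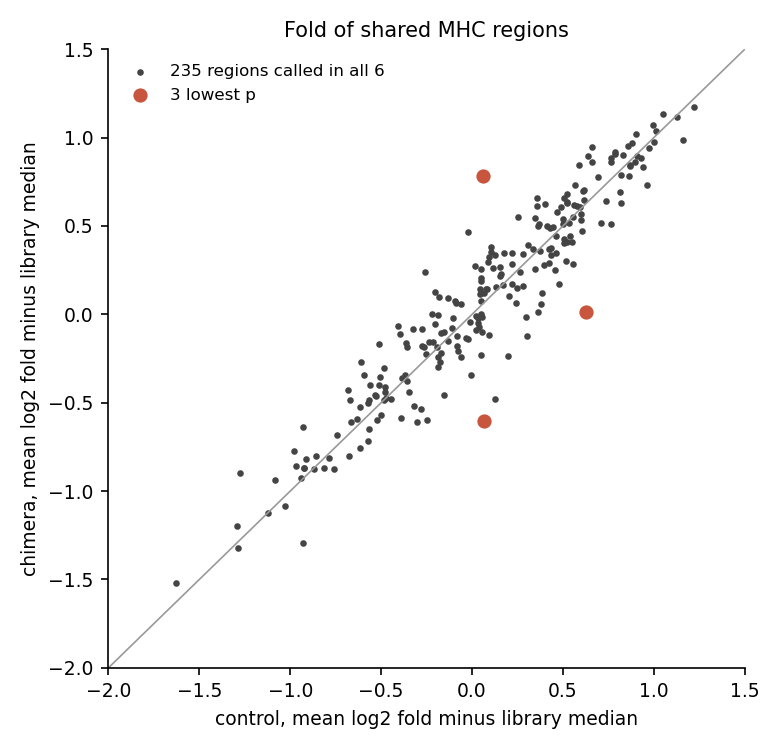
Mean log2 fold minus library median in control libraries (horizontal) and in chimera libraries (vertical) for the 235 members called in all 6 libraries, with the line of equality. The 3 members of lowest p, 1 above and 2 below the line, are marked, and none of the 235 passed the adjusted threshold.

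The 3 members of lowest p were among those 4. They were picked by the comparison of the same groups, a choice that favours groups without overlap. The member from 30553740 to 30554659 in class I had folds of 7.47, 6.46 and 9.48 in the control libraries and of 11.8, 12.7 and 10.9 in the chimera libraries. Every chimera value was above every control value, and the difference was 0.72 ± 0.13 (SE, log2), a ratio of 1.65 (limma, adjusted p = 0.0628). In extended class I the member from 28702800 to 28703708 had folds of 11.5, 10.4 and 12.5 in control and of 6.07, 7.50 and 7.28 in chimera libraries. Every chimera value was below every control value, and the difference was −0.62 ± 0.14 (limma, adjusted p = 0.102). This member lies in the fullest 100 kb of the MHC. A second in extended class I, from 28521276 to 28522620, had folds of 7.07, 8.68 and 7.53 in control and of 4.10, 5.38 and 4.18 in chimera libraries, also without overlap (−0.67 ± 0.19, limma, adjusted p = 0.177). It held up to 3 peaks in a library. Without 1 library in turn, the first of these differences ran from 0.66 to 0.79, the second from −0.67 to −0.54 and the other from −0.77 to −0.47, with the lowest adjusted p at 0.120.

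Presence of a peak gave 6 lost and 0 gained members. Lost members had a peak in 3 of 3 control and 0 of 3 chimera libraries, and gained ones the opposite. The 6 lost members were 1.28% of the 468, against 0.799% of all regions, and 0.621% of all regions were gained. No single region can pass a test of presence with 3 libraries against 3. Both counts are small. With 1 library left out the rule asks for fewer libraries and is looser. Higher counts are then favoured by construction and do not show a dependence on that library. There were 18 lost members without control 2 and 11 without chimera 2, and 3 when peaks up to 1 kb apart were merged. With 1 library left out, 3 members were gained if it was control 1 or chimera 2, 1 if it was control 3 or chimera 3, and 4 if it was chimera 1.

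The lost members were spread over all 5 parts and were low in fold, though not all were low in summit pileup. In extended class I a member from 28779721 to 28779994 had folds of 3.68, 4.15 and 3.34 in control libraries 1, 2 and 3, at a −log10 q of at least 11.8. Its summit pileups were 46, 48 and 58. A second there, from 28831328 to 28831578, had folds of 2.23, 2.34 and 2.61 and lay 0.362 kb from a member called in all 6. Its summit pileups of 64, 55 and 93 were above the median of 54 over member peaks. The class I member, from 30411827 to 30412206, had folds of 5.22, 3.70 and 5.41, the highest of the 6. The class III member, from 31515860 to 31516323, had folds of 3.42, 2.62 and 3.15 and lay 0.322 kb from a member called in all 6. In class II the lost member ran from 32854452 to 32855073, with folds of 4.31, 3.80 and 4.74 and summit pileups of 17 to 20. The one in extended class II, from 33398803 to 33399162, had folds of 4.45, 3.45 and 4.10. All 6 had folds below the median of 7.65 over members called in all 6, an outcome that the selection of both sets favours.

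**Figure D5:**
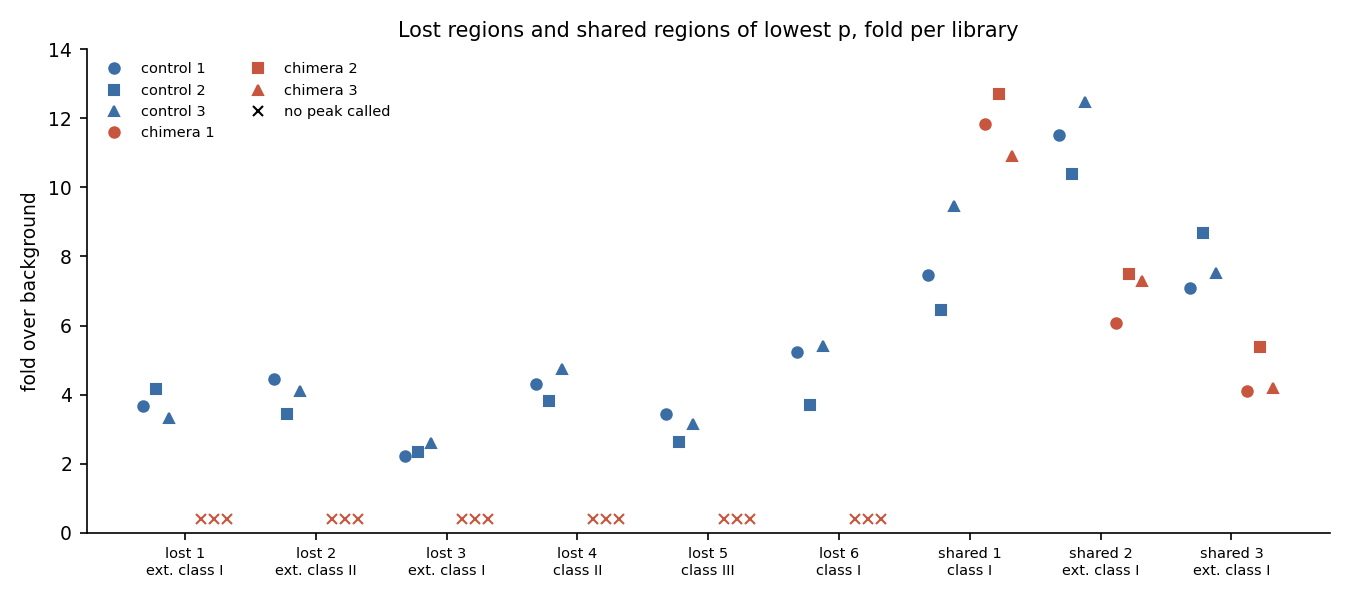
Deposited fold over background in each library for the 6 lost members (in the order of their lowest −log10 q) and the 3 shared members of lowest p, with crosses near 0 where no peak was called. Folds of the lost members lie between 2.23 and 5.41 in the control libraries. The 3 shared members have non-overlapping groups, which their choice by lowest p favours.

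Members called in more libraries of one group than of the other leaned to the control side. Of the 468 members, 122 (26.1%) had a peak in more control than chimera libraries and 79 (16.9%) in more chimera than control libraries, while over all regions the shares were 27.2% and 26.2%. Among members called once, 54 (11.5% of the 468) were called in a control and 41 (8.76%) in a chimera library, against 14.4% and 15.2% of all regions. Among those called in 5 libraries, 23 (4.91%) had 3 control and 2 chimera peaks and 14 (2.99%) the reverse, against 3.63% and 4.11% of all regions. Among those called in 4, 8 (1.71%) had 3 control peaks and 1 chimera peak and 4 (0.855%) the reverse, against 1.71% and 1.45% of all regions, so over the whole genome this pattern also leaned to control. These counts describe the 6 libraries and were not tested. Control 3 called the most members of any library, and its part in the lean was not tested. Among the members called in 3 control and 1 chimera libraries, the one from 33041343 to 33041633 in class II had folds of 7.23, 6.13 and 6.16 in control libraries and of 3.70 in chimera 3. Its counterpart in extended class I, from 29609114 to 29609527, had folds of 6.89, 6.67 and 5.12 in the chimera libraries and of 5.94 in control 1. Both were chosen after their values were seen.

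Pairs of libraries shared 70.8% to 76.7% of the members called in either when they came from different groups, 74.1% to 76.0% within control and 73.6% to 75.6% within chimera. The ranges overlapped. For all regions the shares were 62.2% to 65.5% between groups, 62.9% to 69.4% within control and 65.2% to 65.9% within chimera.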

How the data were processed

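Each library has 1 deposited narrowPeak list, named by the authors for MACS2, so peaks were called per library. Per the file layout the deposited values are a fold (ratio of summit to local background), −log10 p and −log10 q, and a score, which is 10 times −log10 q, capped. The score was not used. The other deposited columns, positions and summit, are in bp. Not given in the sources used here were the MACS2 settings, the aligner and the read filters. Their effect on variable HLA sequence was not tested. The submitters' processing notes name HOMER 4.9 and GRCh38 without a role. Peaks reach 249239990 on chromosome 1 and 51222558 on chromosome 22, past the GRCh38 ends of both. Positions, counted from 1, are therefore given as deposited and read as hg19. A genome of that build was not used here, so the planned gene links, marker checks and motif counts were not run. As a check of the build, gene ends in GRCh38.p14 were set against the deposited summits. Of 342 ends of MHC coding genes, 7.31% to 9.06% had a summit within 500 bp in a library. Over all chromosomes it was 5.61% to 6.67% of 39948 ends. As the builds differ, these are not shares of genes that are open.

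Only chromosomes 1 to 22 and X entered, which dropped 0.0168% of peaks. A library's fold in a region is that of its tallest peak. Summit pileup was recovered under a Poisson model, to within 0.005 in −log10 p, for 100% of member peaks. limma 3.58.1 (R 4.3.3) was fitted to log2 fold centred on library medians, with a mean trend and Benjamini-Hochberg adjustment over all regions tested. The script was tested on simulated data, where 0 of 56479 unchanged regions were called. Other tests were exact permutation or sign-flip tests over libraries. The named regions were the 3 tallest per part, all lost and gained ones up to 10, the 5 widest and the 3 of lowest p. The comparisons with windows of equal length, with genes and between pairs of libraries were added after the data were seen. Members, parts and lists were chosen with earlier results of these data known.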

Additional observations from a re-analysis of the deposited data

How the results depend on the processing

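Without 1 library in turn, sign-flip tests over 5 libraries cannot go below 0.0625, so calls that need 6 libraries were lost by construction. The values ran from 1.23 to 1.26 for MHC density (log2 ratio), from 18.4 to 20.8, 54.0 to 57.7 and 35.0 to 38.0 members per Mb for class III over I, III over II and I over II, and from −0.248 to −0.200 and 0.0753 to 0.128 for the fold of class III minus I and I minus II. Over the same settings gained members ran from 0 to 4 and lost from 8 to 18, under the looser rule that fewer libraries give. Chimera minus control ran from −0.00366 to 0.0396 for MHC fold, from −13.8 to 3.50 for class I members, and from −0.0593 to 0.0306, −0.117 to 0.0248 and −0.0322 to 0.00582 for the fold of class III, class II and extended class II. For class III minus class I it ran from −7.17 to 4.83 members and from −0.113 to 0.00576 in fold.

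At −log10 q of at least 5 there was 1 gained member, the chimera difference in extended class II fold was 0.0787 and that of class III minus class I members 0.333. At −log10 q of at least 10 the latter was 2.67, and the differences in fold were −0.0141 for the MHC, −0.0180 for class I, 0.0757 for class II and 0.0643 for extended class II. There the fold of class III minus class II passed (−0.201) and that of class I minus class II turned to −0.0517. With peaks up to 1 kb apart merged there were 3 lost members, an MHC fold difference of −0.0190, one of 0.0335 in extended class II, and a class III minus class II fold of 0.0278. With 50% cover there was 1 gained member, class III minus class I fold (−0.201) and class I minus class II fold (0.0777) no longer passed, and chimera differences in fold were −0.0193 in class I, 0.0443 in class III, 0.0934 in extended class II and 0.0635 for class III minus class I. With inner boundaries moved by 100 kb, class III minus class I density (2.58) no longer passed, and chimera differences were −0.00113, 0.0221 and 0.128 in the fold of class I, class III and extended class II, 4 for class III minus class I members and 0.0233 for their fold. Without centring the MHC fold difference was −0.0861. The causes were not tested. The other 247 values kept direction and call, among them 0 members passing limma in each of 14 fits.

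With the replicate number as a block, sign flips gave p = 0.5 for members called, p = 0.25 for their share and p = 0.75 for fold (exact; 3 pairs cannot give less than 0.25), and limma called 72 of 56679 regions against 6 without the block, and 0 members in both (lowest adjusted p 0.0512 for the member from 30553740). The replicate numbers did not pair the libraries: same-numbered deviations correlated at −0.00547, −0.0592 and −0.0145 over all regions. With limma at −log10 q of at least 10, without centring, and without each library except chimera 3, 0 regions of the genome passed. Every count of presence depends on the calling threshold of each list, since signal below it is not listed.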
